A study of Mus musculus with 20 samples.

Results

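Pou5f1 encodes Oct4, a transcription factor of the POU family, and its RNA and the DNA contacts of its promoter were followed through 5 groups of mouse cells. The gene is 1 of 55419 transcript models in the RNA count tables, where it has a single model at chr17:35642984-35647722 of the mouse build mm9. Its promoter contacts were the pairs of restriction fragments, within the assayed region, that have at least 1 fragment overlapping chr17:35632984-35652984 (mm9), which is the promoter with 10 kb on each side. There were 613 such pairs with a count in any library, of 24631 in the region assayed around the gene and 96467 in all regions.

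The study set induced pluripotent stem (iPS) cells beside the neural progenitor cells (NPC) they were made from and beside embryonic stem (ES) cells, in 2 media. Each of the 5 groups has 2 RNA-seq libraries and 2 libraries of chromosome conformation capture carbon copy (5C), an assay that counts ligation products between chosen restriction fragments after formaldehyde fixation. The labels do not say that replicates came from separate cultures or animals, and the p-values here rest on library-to-library spread alone, which may be technical. The iPS 2i group holds iPS cells grown without serum in 2i medium, which contains leukemia inhibitory factor (LIF), the GSK3 inhibitor CHIR99021 and the MEK inhibitor PD0325901. The iPS group holds iPS cells that carry Sox2-eGFP, derived from primary NPC by a published method and kept in knockout medium with 15% fetal bovine serum and LIF. The NPC were neurosphere cells, later plated to adhere, taken from the brain of Sox2-eGFP pups at P1 (postnatal day 1). ES 2i cells are V6.5 male ES cells (129SvJae x C57BL/6) in the same 2i medium, and ES cells are V6.5 cells in a pluripotency medium with LIF whose further contents the labels do not give. All 4 pluripotent groups had LIF and were first grown on inactivated fibroblast feeders, then moved to gelatin to leave the feeders behind. The iPS 2i, iPS and NPC groups share the Sox2-eGFP allele, which the labels of the ES groups do not name.

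Oct4 sits near the top of the network that keeps cells of the early embryo and of ES cultures pluripotent. It binds DNA together with Sox2 at many enhancers, including those of its own gene, and it is 1 of the factors used to reprogram somatic cells. The gene is read in the inner cell mass, ES cells and germ cells, and is shut off with DNA methylation and repressive chromatin in somatic tissue. Upstream of the start lie a proximal and a distal enhancer, whose place among the 5C fragments was not mapped here. What 5C is meant to measure is contact between restriction fragments, not within 1 fragment.

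The promoter is shown because the contact window is built around it. RefSeq (GRCm38.p6) places the start of the full-length form on the plus strand of chromosome 17, and the 300 bases at chr17:35505782-35506081 of that build run from 250 before to 50 after it. Capitals mark a GC box, GGGCGG, and a short nuclear receptor motif, AGGTCA, that begin 45 and 33 bases before the start.
Pou5f1 promoter: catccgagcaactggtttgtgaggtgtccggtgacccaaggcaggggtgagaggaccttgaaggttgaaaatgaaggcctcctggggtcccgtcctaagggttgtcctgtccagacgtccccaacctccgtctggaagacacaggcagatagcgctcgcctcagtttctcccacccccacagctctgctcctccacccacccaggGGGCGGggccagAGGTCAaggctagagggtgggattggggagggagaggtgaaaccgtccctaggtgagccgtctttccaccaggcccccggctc
The letters GGGCGG, searched on both strands, occur in 35.7% of 32851 RefSeq promoters of the same length, and AGGTCA in 16.3%. The octamer ATGCAAAT, the classical POU motif, occurs in 1.74% of them and not in these 300 bases.

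Pou5f1 RNA was abundant in every pluripotent library and was not detected in either NPC library. The gene was called in NPC relative to ES (adjusted p = 3.03e-23, edgeR) and in iPS relative to NPC (adjusted p = 2.6e-24), where 61% and 51.3% of all tested models were called. The NPC libraries had 0 and 0 counts at the gene, among 1150624 and 3644461 reads in models. A count of 0 allows up to 3 counts, or 2.51 and 0.869 CPM (the count scaled to the library's reads in models, with TMM normalization), and such limits cover counting error only. In the ES libraries the gene had 20660 and 4243 counts, or 1160 and 1117 CPM. With the less sensitive NPC limit, the mean CPM was at least 453-fold higher in ES than in NPC, and at least 1360-fold higher in iPS. Because the samples are bulk RNA, fewer cells with the transcript and less RNA per cell cannot be told apart.

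The order of the 4 pluripotent groups was iPS, iPS 2i, ES and ES 2i. The iPS libraries had 3898 and 2913 CPM, with a mean of 3405 ± 697 (SD, n = 2). The iPS 2i libraries had 1479 and 1507 CPM, or 1493 ± 19.3 (SD, n = 2). The ES 2i libraries had 848.2 and 974.3 CPM (911.3 ± 89.2, SD, n = 2), against a mean of 1139 ± 30 in ES (SD, n = 2). None of these groups overlapped the next in the order. Both iPS libraries lay above every other library, although they differed from each other more than any other pair of replicates did.

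**Figure D1:**
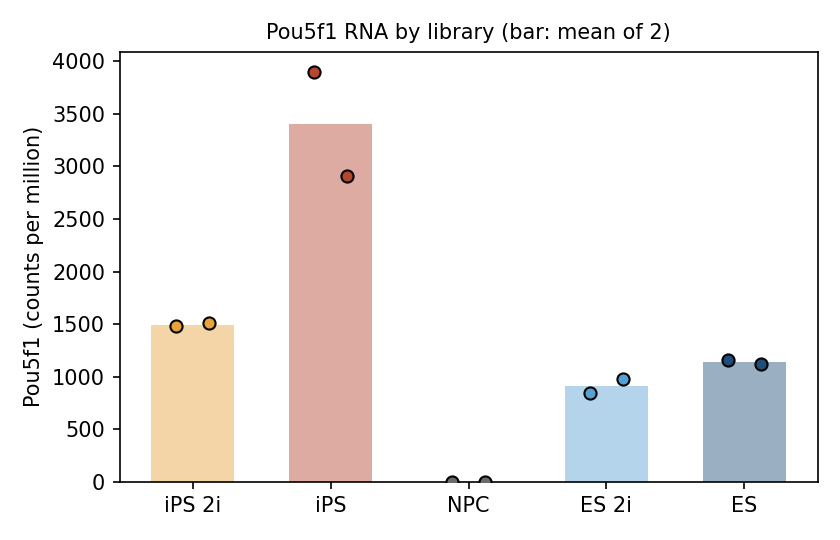
Pou5f1 RNA in CPM (vertical axis) in iPS 2i, iPS, NPC, ES 2i and ES cells; points are the 2 libraries of a group and bars their mean. The NPC libraries are at 0, and the iPS libraries, at 3898 and 2913 CPM, stand above all others.

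Pou5f1 RNA rose in iPS cells relative to ES cells by 1.58 on the log2 scale, or 2.99-fold (SE 0.14, adjusted p = 8.52e-11, edgeR's quasi-likelihood test with Benjamini-Hochberg adjustment over 11031 models). It was called in a comparison in which 52.9% of all tested models were called. The authors' deposited log2 values gave a difference of 1.59 between the same groups. The labels name a published derivation for the iPS cells, and counts per model do not separate RNA of the gene's own locus from RNA of an introduced copy. Near-identical Pou5f1 pseudogenes also exist in the mouse genome, and the sources used here do not say how reads shared with them were counted.

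The move to 2i medium went with less Pou5f1 RNA in iPS cells. It fell in iPS 2i cells relative to iPS cells by 1.19 (log2; SE 0.14, adjusted p = 3.14e-08, edgeR), to 0.439 of the iPS level, in a comparison that called 42.6% of all models. The move to 2i, from a medium whose contents the labels do not give in full, went with a log2 difference of -0.32 in ES cells (SE 0.14, adjusted p = 0.0874), which was not called, where 24.5% of all models were. The difference between the iPS and the ES response was itself -0.87 (log2; SE 0.19, adjusted p = 0.00103), a test that called 27.3% of all models. That test leaned on the higher iPS library: without iPS replicate 1 it was -0.64 with an adjusted p of 0.0635. The iPS medium held serum and the 2i medium held none, so the inhibitors and the loss of serum cannot be told apart.

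In 2i medium the gap between the cell origins was smaller but was still called. Pou5f1 was 0.71 higher (log2) in iPS 2i cells than in ES 2i cells (SE 0.14, adjusted p = 0.000271, edgeR), or 1.64-fold, where 25.3% of all models were called. Across media, iPS 2i cells were 0.39 higher (log2) than ES cells (SE 0.14, adjusted p = 0.0276; 32.8% of all models were called), a call lost when any 1 of the 4 libraries was left out. Without ES replicate 2 the value was 0.28 (adjusted p = 0.151), without ES replicate 1 it was 0.42 (adjusted p = 0.0907), without iPS 2i replicate 1 it was 0.41 (adjusted p = 0.124), and without iPS 2i replicate 2 it was 0.34 (adjusted p = 0.107).

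The marker genes of each labelled cell type were read in its libraries, beside some RNA of other cell types. Pluripotency markers (11 models) summed to 0.837 and 0.29 CPM in NPC, with 10 of the 11 at 0 in both libraries. They summed to 5240 and 5280 CPM in iPS 2i, 2990 and 3170 in iPS, 4480 and 4650 in ES 2i, and 6850 and 6580 in ES. Of these 11 models, 10 fell and none rose in iPS over ES, where 26.9% of all models fell and 25.9% rose. All 7 neural progenitor marker models, led by Olig1, Ncan and Olig2, were higher in NPC than in ES, where 27.3% of all models were. Fibroblast markers summed over 7 models to 910 and 923 CPM in iPS 2i, 2750 and 2950 in iPS, 74.5 and 105 in NPC, 439 and 449 in ES 2i, and 1210 and 1390 in ES. In iPS over ES, 6 of these 7 models rose and none fell, where 25.9% of all models rose and 26.9% fell. Trophoblast and endoderm markers (6 models, mainly Krt8 and Krt18) summed to 715 and 905 CPM in iPS cells, against 323 and 357 in ES cells. Of these, Krt8, Krt18 and T rose in iPS over ES, while the endoderm factors Sox7 and Gata6 fell by 2.79 and 1.45 (log2). Neural progenitor markers summed to 321 and 287 CPM in iPS cells, against 97.7 and 105 in ES cells, a sum carried by Sox1, which alone of the 7 models rose, while Olig2 and Ncan fell by 1.11 and 0.78 (log2). Neuron and glia markers (2 models) summed to 964 and 785 CPM in iPS cells, against 256 and 316 in ES cells, and to 36 and 37.4 CPM in NPC. The part of these cells in the Pou5f1 differences was not tested.

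Sox2, which pairs with Oct4 on DNA, did not follow Pou5f1. It fell in iPS cells to 114 ± 4.63 CPM, against 527 ± 70.2 CPM in ES cells (SD, n = 2 each; log2 fold change -2.20, adjusted p = 8.71e-14, edgeR). In NPC, where Pou5f1 was at 0, Sox2 stood at 249 ± 3.05 CPM (SD, n = 2), lower than in ES by 1.08 (log2; adjusted p = 9.48e-08). Sox2 is also a neural progenitor gene, and NPC and iPS carry the Sox2-eGFP allele.

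The other factors that bind with or beside Oct4 mostly fell where Pou5f1 rose. Of 13 tested models of 12 partner genes, 9 fell and 2 rose in iPS relative to ES (median log2 fold change -1.31, against -0.03 over all models; 26.9% of all models fell and 25.9% rose). Tcfcp2l1, a factor of the naive pluripotent state, fell to 56.7 ± 21.9 CPM in iPS, against 1320 ± 84.6 CPM in ES (SD, n = 2 each; log2 -4.53, adjusted p = 4.19e-18, edgeR). Esrrb, an orphan nuclear receptor, fell by 3.5 on the log2 scale from low counts, Klf5 fell by 2.93, and Prdm14, a repressor of differentiation genes, fell by 2.60. Klf4, a zinc finger factor that is also used for reprogramming, went the other way and rose to 319 ± 55.7 CPM in iPS, against 89.4 ± 8.04 CPM in ES (SD, n = 2 each; log2 1.84, adjusted p = 1.37e-12). Nacc1, a BTB-domain protein found in Oct4 complexes, rose by 0.65. No model with the symbol Nanog was analysed here.

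In 2i medium most partners rose in iPS cells, where Pou5f1 fell. In iPS 2i over iPS, 9 of the 13 partner models rose and 2 fell (median 1.06, against 0.03 over all models; 21.1% of all models rose and 21.5% fell), and the 2 that fell were Klf4 by 1.08 and Nacc1 by 0.36. Prdm14 rose by 4.30, Esrrb by 3.08, Tcfcp2l1 by 2.99 and Sox2 by 1.52 (log2). In ES 2i over ES, 3 partner models rose and 1 fell (median 0.21; 11.3% of all models rose and 13.2% fell). Prdm14 rose there by 2.09 and Klf4 by 0.84, while Nr0b1, a nuclear receptor that binds Oct4, fell by 0.47. These contrasts share libraries, and the lists were drawn up with earlier results of these data known.

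Genes long described as Oct4 targets were lower in NPC and mixed between iPS and ES cells. All 18 tested target models, of 17 genes, fell in NPC relative to ES, where 33.7% of all models fell, and 15 of the 18 were at 0 in both NPC libraries. Those 15 passed the low-count filter through the pluripotent libraries alone, so they could only be called lower in NPC. The median, with those genes set at the bound given by 3 counts, was -5.87 (log2), and Dppa5a was at least 1020-fold higher in ES than in NPC. For Fbxo15 and 1 Upp1 model the ES mean was only 0.396 and 0.668 times that bound, so it gives no lower limit to their fall. Trim28, a chromatin corepressor used by most cells, had 1930 ± 159 CPM in NPC, against 4510 ± 357 CPM in ES (SD, n = 2 each; log2 -1.22, adjusted p = 9.31e-10, edgeR). In iPS over NPC, 17 target models rose and none fell (29.3% of all models rose and 22% fell), where models at 0 in NPC could not fall.

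Most target models did not rise with Pou5f1 in iPS relative to ES. There 12 of the 18 models fell and 2 rose, with a median of -0.99 (log2), where 26.9% of all models fell and 25.9% rose. Dppa3, a maternal factor that guards DNA methylation, fell by 3.82, Dppa4 by 3.66 and Dppa2 by 1.80. Tdh, a threonine-degrading enzyme, fell by 1.76 and Fgf4, a growth factor with a classical Oct4 and Sox2 enhancer, by 0.79. Lefty1, a secreted Nodal antagonist, rose to 1550 ± 41.7 CPM in iPS, against 114 ± 1.02 CPM in ES (SD, n = 2 each; log2 3.76, adjusted p = 1.19e-18, edgeR). Gdf3, a TGF-beta family ligand, rose by 0.49. In 2i, Lefty1 fell in both lines, by 4.36 in iPS 2i over iPS and by 1.94 in ES 2i over ES (log2), while 9 target models rose and 2 fell in iPS 2i over iPS (21.1% of all models rose and 21.5% fell). In ES 2i over ES, 2 target models rose and 6 fell (11.3% of all models rose and 13.2% fell).

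**Figure D2:**
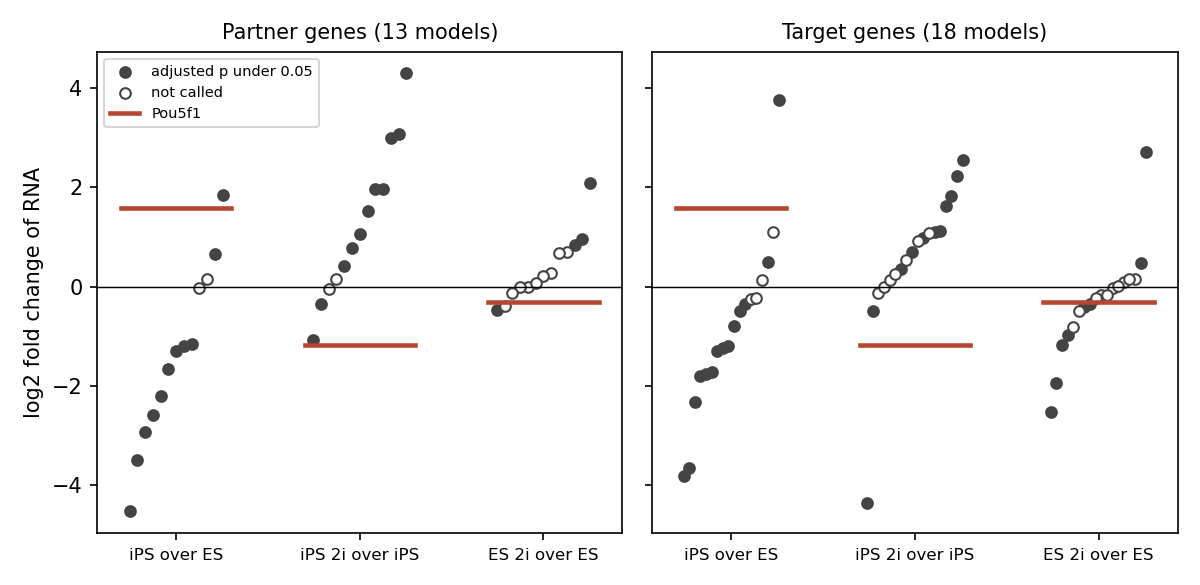
Log2 fold change of RNA (vertical axis) of each tested model of the Oct4 partner genes (left) and target genes (right) in 3 comparisons; filled points were called at an adjusted p under 0.05, and the red line is Pou5f1. In iPS over ES, 9 of 13 partner and 12 of 18 target models fell while Pou5f1 rose by 1.58; in iPS 2i over iPS, 9 partner and 9 target models rose while Pou5f1 fell by 1.19.

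Among factors reported to repress or methylate the gene, 4 models were higher and 5 lower in NPC than in ES (12 models tested), where 27.3% of all models were higher and 33.7% lower. Of the 5 lower, Cdx2 was at 0 in both NPC libraries and could only be called lower. Those higher were Nr2f1, both Nr2f6 models and 1 of 2 Dnmt1 models. Nr2f1 and Nr2f6 are orphan nuclear receptors of the COUP-TF family that can bind motifs of that kind. Nr6a1, another nuclear receptor of this list, went the other way. It was lower in NPC than in ES by 3.16 (log2; adjusted p = 0.00188, edgeR), with counts of 1 and 1 against 48 and 26. Nr2f1 had 37.6 ± 3.41 CPM in NPC, against 0.723 ± 0.467 CPM in ES (SD, n = 2 each; log2 6.13, adjusted p = 2.54e-12, edgeR). The main Nr2f6 model had 149 ± 34.3 CPM in NPC, against 27.8 ± 6.17 CPM in ES (SD, n = 2 each; log2 2.51, adjusted p = 2.2e-13). Both also rose in iPS relative to ES, Nr2f1 by 3.55 and Nr2f6 by 1.70, where Pou5f1 rose too. Hdac1, a histone deacetylase of many corepressors, and Hells, a chromatin remodeler, fell in NPC by 2.15 and 2.08.

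Among factors reported to act on the Pou5f1 enhancers or promoter, 7 of 11 tested models fell in NPC relative to ES and none rose. That is 63.6% called, against 61% of all models, of which 33.7% fell. Of the 11, 2 were at 0 in both NPC libraries and could only be called lower there. Foxd3, a forkhead factor of ES cells, was at 0 in both NPC libraries, and Ncoa3, a nuclear receptor coactivator, fell to 28.9 ± 0.564 CPM in NPC, against 419 ± 2.44 CPM in ES (SD, n = 2 each; log2 -3.85, adjusted p = 5.39e-19, edgeR). In iPS over ES, the retinoic acid receptor Rara rose by 1.36 and 1 of 2 models of the receptor Rarg by 1.32 (the other was at 0.54, adjusted p = 0.0749, edgeR), and Ncoa3 and Foxd3 fell by 2.01 and 1.37. Models of architectural proteins (6 tested) fell in 3 cases and rose in 2 in NPC over ES, and fell in 4 with none rising in iPS over ES, where 61% and 52.9% of all models were called. The cohesin subunit Rad21 was among those that fell in iPS, by 1.57.

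Other genes of the POU family were read in NPC, where Pou5f1 was not detected. Of 9 tested family models, Pou5f1 included, 4 were higher and 5 lower in NPC than in ES, where 27.3% of all models were higher and 33.7% lower. Of the 5 lower, 4 were at 0 in both NPC libraries and could only be called lower. Pou3f1, a POU factor of neural and glial cells, had 407 ± 37.5 CPM in NPC, against 47 ± 0.958 CPM in ES, and Pou3f3 had 264 ± 43 CPM, against 0.704 ± 0.122 CPM (SD, n = 2 each). Pou3f4 and Pou6f1, both brain-expressed, were higher in NPC by 6.13 and 6.51 (log2). Pou3f1 fell in 2i in both lines, by 2.84 in iPS 2i over iPS and by 2.55 in ES 2i over ES.

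The models whose log2 CPM followed Pou5f1 most closely over the 10 libraries were Prune, Ezr, 1190003J15Rik, Exosc2, Tuba4a, Anxa11, Zfp259 and B4galt1, with Pearson correlations of 0.9969 to 0.9949 among 5031 models compared. The 10 libraries include NPC, where Pou5f1 was at 0. Over the 8 pluripotent libraries the values were 0.97 for Prune, a phosphoesterase, 0.90 for Ezr, a membrane linker, and 0.69 to 0.86 for the others. Prune had 327 and 312 CPM in iPS, 55.3 and 66.1 in NPC, and 257 and 260 in ES.

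The nearest neighbours of Pou5f1 among models with a symbol were weakly read in every library. Only 11767 of the 55419 models carry a symbol, and nearer genes without one were not looked at. H2-Q10, a class I histocompatibility gene whose nearer end lies 31.5 kb away, had at most 2.21 CPM. Psors1c2, 27.2 kb downstream, had 0 and 0 counts in NPC, against 55 and 21 in ES, and Cdsn, the corneodesmosin gene 46.1 kb downstream, had 0 and 0 in NPC, against 21 and 6 in ES. Both were called lower in NPC than in ES (adjusted p = 6.84e-05 and 0.00826, edgeR), at levels of at most 5.53 CPM in any library. With 0 counts in both NPC libraries, they could only be called lower there. Cdsn had 1.18 and 1.58 CPM in ES, under the less sensitive NPC limit of 2.51 CPM, which gives no lower limit to its fall.

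In the 5C data, 4 restriction fragments overlapped the promoter window. The upstream fragment (chr17:35633986-35641098), the fragment with the transcription start (chr17:35641100-35643151), the fragment with the gene body (chr17:35643153-35652109) and the downstream fragment (chr17:35652111-35659417) had 117, 141, 150 and 84 tested pairs, of which 3 join a pair of these fragments and count for both. In all, 489 of the 613 pairs had a mean of at least 10 counts and were tested, and the other 124 were not. Forward primers were set only against reverse primers, so the upstream, start and downstream fragments were measured against forward fragments and the gene body against reverse ones. Contact between the upstream and the start fragment, both reverse, was therefore not measured. Each count was set against the count expected for its library, region and 1 of 20 distance strata, which gives observed over expected contact. A second expectation, chosen after seeing that whole fragments differed between groups, added 1 factor per fragment and library (fragment-balanced). It matches the total count of each fragment in each library, which removes a shift shared by all its contacts. Strong contacts weigh most in that total, so a change in them alone also moves the fragment's other values. In NPC over ES, the median log2 fold change of the upstream fragment went from -0.47 to 0.63 with balancing. That of the start fragment went from -0.17 to 0.52.

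The promoter window as a whole held a larger share of the region's contacts in 2i than in the other medium of each line, a difference of sums that was not tested. It took 1.72% and 1.90% of the counts of the region in iPS 2i, 1.17% and 1.57% in iPS, 0.888% and 0.919% in NPC, 2.84% and 2.19% in ES 2i, and 1.13% and 1.11% in ES. Observed over expected contact was 0.765 and 0.843 in iPS 2i, 0.524 and 0.688 in iPS, 0.41 and 0.426 in NPC, 1.26 and 0.963 in ES 2i, and 0.511 and 0.503 in ES. NPC had the lowest and ES 2i the highest values, and no other group overlapped either of them. The start fragment alone had 0.597 and 0.665 in NPC, against 0.959 and 0.946 in ES, and the upstream fragment 0.199 and 0.204, against 0.365 and 0.385. The gene body fragment had 0.813 and 0.764 in NPC, against 0.725 and 0.69 in ES, and the downstream fragment 0.202 and 0.199, against 0.0984 and 0.0867. Within 1 window, then, the upstream and start fragments were lower in NPC than in ES and the gene body and downstream fragments higher.

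**Figure D3:**
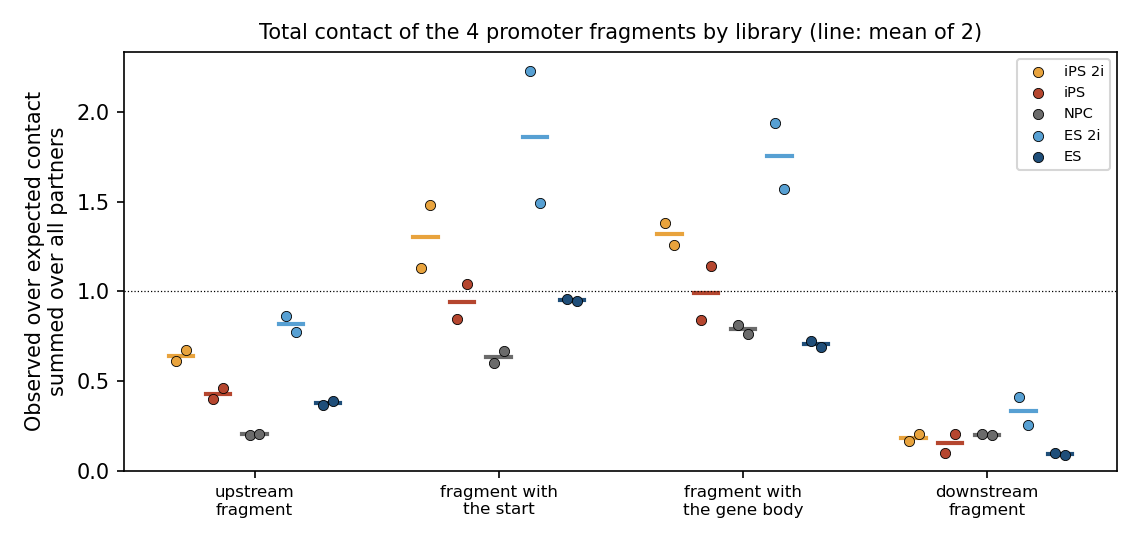
Observed over expected contact (vertical axis), summed over all partners, of the 4 fragments of the promoter window in iPS 2i, iPS, NPC, ES 2i and ES cells; points are libraries and lines the mean of 2. ES 2i libraries are the highest for every fragment, and NPC libraries are the lowest for the upstream and the start fragment.

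Between NPC and ES, promoter contacts moved in both directions, at a share near that of the region. At an adjusted p under 0.05 (edgeR, adjusted over 75889 pairs), 76 of the 489 pairs were called, 34 higher and 42 lower in NPC, or 15.5%, against 17.9% over all regions (8.53% higher and 9.33% lower) and 19% in the region around the gene. The median log2 fold change was 0.15, against 0.11 in the region. Without ES replicate 2 the count was 38. With fragment-balanced expectation 58 were called, 36 higher and 22 lower, where 16.8% of the region was called, and 29 were called without ES replicate 2.

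The calls were not spread evenly over distance. Among pairs under 50 kb apart, measured between fragment centres, 11 of 24 fell and 2 rose in NPC, with a fragment-balanced count of 11 and 1. In the whole region 396 of 1306 such pairs fell and 189 rose (44.8% called, against 54.2% of the promoter pairs), and with balancing 688 fell and 102 rose (60.5%). More short-range contacts fell than rose in NPC in both sets.

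Upstream, the start fragment contacted a fragment 18.5 kb away (chr17:35619819-35627528). Observed over expected contact there was 2.54 and 4.67 in iPS 2i, 1.72 and 2.01 in iPS, 0.512 and 0.599 in NPC, 6.64 and 4.46 in ES 2i, and 3.11 and 3.53 in ES. NPC libraries were lowest and did not overlap any other group, and iPS libraries lay between NPC and ES. The contact fell in NPC relative to ES by 2.58 (log2; SE 0.28, adjusted p = 2.91e-06, edgeR), and by 0.52 with fragment-balanced expectation (adjusted p = 0.00491). It rose in iPS relative to NPC by 1.75 (SE 0.27, adjusted p = 0.000486), but not with balancing (0.17, adjusted p = 0.338). That upstream fragment fell against its other partners too, with a median of -0.82 over its tested pairs. No gene of the expression table lies on it.

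Downstream, the promoter fragments met a stretch of DNA around Psors1c2. The start fragment with the fragment that holds Psors1c2, 28.7 kb away (chr17:35669784-35671795), had observed over expected contact of 0.474 and 1.2 in iPS 2i, 0.781 and 0.930 in iPS, 0.213 and 0.347 in NPC, 1.5 and 1.11 in ES 2i, and 0.789 and 0.940 in ES. It fell in NPC relative to ES by 1.63 (SE 0.35, adjusted p = 0.00294, edgeR), and by 1.57 with balancing (adjusted p = 0.000724). It rose in iPS relative to NPC by 1.61 (adjusted p = 0.00722), and by 1.77 with balancing (adjusted p = 0.000285). The size of this difference hardly moved with balancing, whereas that of the upstream pair shrank.

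The gene body fragment was also lower in NPC with partners downstream. With a fragment 21.3 kb downstream (chr17:35668012-35669782) it had 1.23 and 1.71 in iPS 2i, 1.29 and 1.26 in iPS, 0.506 and 0.58 in NPC, 1.97 and 1.76 in ES 2i, and 1.43 and 1.58 in ES. NPC was again below all other libraries, by 1.47 (log2) relative to ES (SE 0.24, adjusted p = 0.000303, edgeR) and by 1.21 with balancing (adjusted p = 0.000282). In iPS it rose relative to NPC by 1.23 (adjusted p = 0.00357), and by 0.95 with balancing (adjusted p = 0.00149).

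Between 15 and 50 kb, 9 promoter pairs, among the 24 tested under 50 kb, fell in NPC relative to ES under both expectations. No share of the region's pairs was taken for 15 to 50 kb. Under 50 kb, 396 of 1306 pairs in the region fell with distance strata and 688 with balancing, so the 9 may be no more than the regional share. The falls ran from 0.87 to 2.77 on the log2 scale, the steepest being that of the upstream promoter fragment with a fragment 29.6 kb away (chr17:35666364-35668010), which also rose in iPS relative to NPC by 2.48 (adjusted p = 0.000946, edgeR). With 100 distance strata in place of 20, a setting also chosen after seeing the data, 4 of the 9 lost the call, among them the pair of the start fragment with the Psors1c2 fragment (-0.93, adjusted p = 0.05). The smallest fall, of the gene body fragment with a fragment 38.1 kb downstream, turned to 0.16 with 100 strata, and its call was also lost with 10 strata, with the region total alone and when any 1 of the 4 libraries was left out. The contact of the start fragment with the gene body fragment, 5.5 kb apart, did not share the fall: it was 2.93 and 2.42 in NPC, against 2.39 and 2.17 in ES (log2 0.23, adjusted p = 0.537), and rose by 0.84 with balancing (adjusted p = 0.000177).

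**Figure D4:**
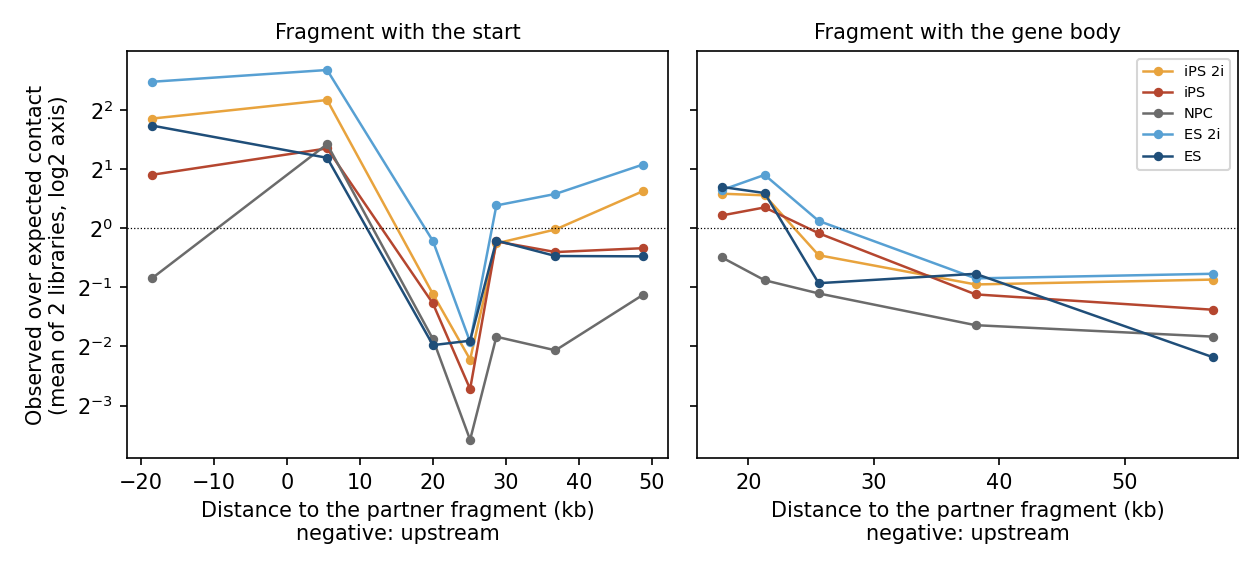
Observed over expected contact (vertical log2 axis, mean of 2 libraries) of the start fragment (left) and the gene body fragment (right) against the distance to the partner fragment in kb, negative upstream; dotted line, 1. NPC lies lowest at 18.5 kb upstream and beyond 28 kb downstream of the start fragment, whereas at 5.5 kb it lies beside iPS and ES.

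Farther out, the highest contact of any promoter pair at 20 kb or more was that of the start fragment with a fragment 647.8 kb downstream (chr17:36288268-36291497) on the gene 2410017I17Rik. It was 17.2 and 21.6 times the expected count in iPS 2i, 31.5 and 20.0 in iPS, 8.31 and 7.36 in NPC, 19.1 and 14.5 in ES 2i, and 38.5 and 35.2 in ES. NPC libraries were lowest and ES libraries highest, with no overlap between them and any other group. The pair fell in NPC relative to ES by 2.23 (SE 0.29, adjusted p = 2.49e-05, edgeR), and by 0.97 with balancing (adjusted p = 0.0037). The partner fragment had the highest median contact of all 317 fragments of the region, 7.7 times expected over 162 pairs, so its high values are shared by many partners. It also fell in NPC relative to ES over its tested pairs, with a median of -1.77 (log2), the lowest of the 312 fragments with tested pairs. The 7 next highest promoter pairs had 10.4 to 4.23 times the expected count, averaged over the 10 libraries.

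The gene body fragment was also lower in NPC with a fragment next to that one, 638.8 kb downstream. That neighbouring fragment had a median of -1.1 (log2) in NPC relative to ES over its tested pairs. The counts of its pair with the gene body fragment were 87 and 101 in iPS 2i, 20 and 46 in iPS, 8 and 0 in NPC, 238 and 219 in ES 2i, and 86 and 81 in ES. The log2 fold change in NPC relative to ES was -3.33 (SE 0.65, adjusted p = 0.00135, edgeR), and -2.22 with balancing (adjusted p = 0.0264). The counts are low, and both NPC libraries lay below both ES libraries. The value was -2.43 without NPC replicate 2, and -8.69 without NPC replicate 1, where the remaining NPC count of 0 makes it a fitted value and no bound.

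In iPS relative to NPC, most called promoter pairs were higher, at a share near that of the region. The upstream, start and gene body fragments had medians of 0.83, 0.48 and 0.31 (log2). The downstream fragment went the other way, with a median of -0.5 and the 1 lower call. Of the 489 pairs 41 were called, 40 higher and 1 lower in iPS, or 8.38%, against 6.9% over all regions (4.9% higher and 1.99% lower) and 7.74% in the region, with a median of 0.39 (log2), against 0.19 in the region. Leaving out 1 library gave 24 calls without NPC replicate 1, 23 without NPC replicate 2, 18 without iPS replicate 1 and 22 without iPS replicate 2. With balancing the split turned, with 20 higher and 31 lower, where 17.7% of the region was called; without iPS replicate 1 there were 10 higher and 2 lower, and without iPS replicate 2 there were 13 and 12, so the turned split rests on single libraries. Without NPC replicate 1 it was 18 and 18. Under 50 kb, 9 of 24 pairs rose and 1 fell, where 41% of such pairs in the region were called.

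Few promoter contacts separated iPS from ES cells. There were 12 calls, 10 higher and 2 lower in iPS, or 2.45%, against 5.19% over all regions (3.72% higher and 1.47% lower) and 5.66% in the region, and 0 of 489 were called with balancing (edgeR; no other tool was run with that expectation), as were 0.0217% of the region's pairs. No promoter pair under 50 kb was called (13.9% of such pairs in the region were). DESeq2 called 29, and expectation from the region total alone gave 24. Leaving out ES replicate 1, ES replicate 2 or iPS replicate 2 gave 7, 3 and 3 calls. The clearest of the 12 was the gene body fragment with a fragment 598.3 kb upstream on Slc44a4 (chr17:35045699-35053032), with counts of 64 and 73 in iPS, 30 and 43 in NPC, and 12 and 7 in ES. It was higher than in ES by 3.75 in iPS (SE 0.56, adjusted p = 0.000311, edgeR) and by 3.57 in NPC (adjusted p = 0.000222). That partner fragment was also raised over ES across its tested pairs, with medians of 2.32 in iPS and 2.16 in NPC, and with balancing neither call held (1.14 and 1.36, adjusted p = 0.629 and 0.103). Both comparisons use the ES libraries, whose counts were the low ones.

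The comparison of ES 2i with ES gave the most promoter calls. Of 489 pairs, 152 were higher and 1 lower in ES 2i than in ES, or 31.3% called, against 11.8% over all regions (6.51% higher and 5.26% lower) and 13.8% in the region, with a median of 1.12 (log2), against 0.16. The rise ran through all 4 fragments, with medians of 0.84 for the upstream, 0.73 for the start, 1.41 for the gene body and 1.58 for the downstream fragment. Of the 312 fragments of the region with tested pairs, 10 had a higher median than the gene body and 7 than the downstream fragment. With balancing there were 4 calls, 1 higher and 3 lower (1.19% of the region was called). That expectation matches the total count of each fragment in each library, which takes out what all the fragment's contacts share. Leaving out a library lowered the count to 78 without ES replicate 1, 39 without ES replicate 2 and 44 without ES 2i replicate 1.

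Among the 3 contacts that were lower in ES 2i under balancing was the far pair with 2410017I17Rik, which fell by 1.13 with distance strata (SE 0.28, adjusted p = 0.0117, edgeR) and by 1.11 with balancing (adjusted p = 0.0228). Its first call was lost without ES replicate 1 (-1.07, adjusted p = 0.0778), without ES replicate 2 (-1.2, adjusted p = 0.0622) and without ES 2i replicate 2 (-0.95, adjusted p = 0.112). With balancing, 2 promoter pairs were called without ES replicate 1 and 0 without any other 1 of the 4 libraries. The pair with the fragment 18.5 kb upstream was another, at -0.62 with balancing (adjusted p = 0.0229) but 0.74 with distance strata (adjusted p = 0.073). The partner fragment on 2410017I17Rik had a median of -1.04 (log2) over its tested pairs in ES 2i over ES. Pou5f1 RNA did not pass its test in the same comparison.

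In iPS cells the move to 2i gave no called promoter pair (0 of 489, edgeR), with 57 at an unadjusted p under 0.05 and 4 called by DESeq2, where 0.0514% of all pairs were called. The median was 0.25 (log2), against -0.12 in the region. The difference between the 2 responses was called for 6 pairs, all with a smaller response in iPS (1.23%, against 1.94% over all regions, 1.37% with a smaller response; median -0.90), and for 0 pairs with balancing. DESeq2 called 25, the replicate block 14 and the region total as expectation 17. A partner fragment on Mdc1 had a median of -2.63 (log2) over its tested pairs in this test, the lowest of 312 fragments of the region. Its medians over ES were 2.69 in ES 2i, 2.57 in NPC, 2.19 in iPS and 2.33 in iPS 2i. Of the 6 pairs, 3 share that fragment, which lies 345.6 kb from the upstream promoter fragment. That count rests on single libraries: it was 21 without iPS replicate 1, 1 without iPS replicate 2, 2 without iPS 2i replicate 2, and 3 without ES replicate 2, ES 2i replicate 1 or iPS 2i replicate 1.

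No promoter pair separated iPS 2i from ES 2i (0 of 489, edgeR), with 36 at an unadjusted p under 0.05 and 0 called by DESeq2, and no pair of any region was called in that comparison. Against ES, iPS 2i had 42 higher pairs and none lower (8.59%, against 4.04% over all regions, of which 3.03% higher; median 0.75), and 0 with balancing, where 0.0705% of the region was called. Leaving out 1 library gave 14 calls without ES replicate 1, 8 without ES replicate 2, 12 without iPS 2i replicate 1 and 26 without iPS 2i replicate 2.

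**Figure D5:**
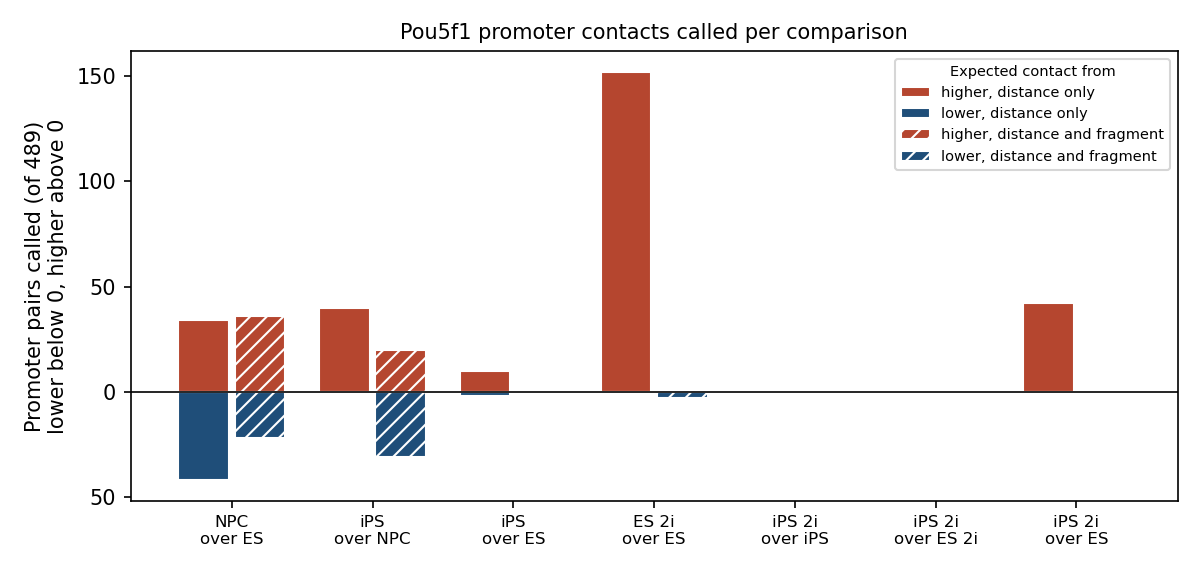
Number of the 489 tested promoter pairs called in each comparison, higher above and lower below 0; plain bars use expected contact from distance, hatched bars from distance and fragment. In ES 2i over ES 152 pairs were higher with the first expectation and 1 with the second, and in NPC over ES the second gave 36 higher and 22 lower.

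The authors' own binned values, read here as log2 and corrected by them for distance, cover the region in overlapping 20 kb bins, 1 starting every 4 kb. Overlapping bins share fragments, so counts of called bin pairs are a description. Of 1146 tested pairs with 1 of the 5 bins that cover the start, 295 were called in NPC relative to ES (limma; 25.7%, against 32.7% over all regions), 109 higher and 186 lower. In iPS relative to NPC 144 were called, 129 of them higher (12.6%, against 19.2%). In ES 2i relative to ES 774 were called, 771 of them higher (67.5%, against 21.7%). These shares moved with single libraries. For NPC over ES the share was 12.3% without ES replicate 1, 10.6% without ES replicate 2 and 13.2% without NPC replicate 2. For iPS over NPC it was 4.89% and 7.16% without NPC replicate 1 or 2, and 2.71% and 7.77% without iPS replicate 1 or 2. For ES 2i over ES it was 27.6% without ES replicate 1, 16.6% without ES replicate 2 and 17% without ES 2i replicate 1.

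The bin nearest the start and the bin 20 kb upstream had distance-corrected values of 1.27 and 2.14 in iPS 2i, 0.382 and 0.598 in iPS, -0.453 and -0.41 in NPC, 2.52 and 2.13 in ES 2i, and 1.31 and 1.58 in ES. The contact fell in NPC relative to ES by 1.88 (SE 0.26, adjusted p = 0.00109, limma) and rose in iPS relative to NPC by 0.92 (SE 0.26, adjusted p = 0.0347). The difference of iPS from ES was -0.96 (adjusted p = 0.0519). The bins 28 and 32 kb downstream, near Psors1c2, fell in NPC relative to ES by 0.98 (adjusted p = 0.00231) and 0.89 (adjusted p = 0.00339).

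The authors' deposited table of contact classes, made from the ES, NPC and iPS libraries, lists 24 pairs of the nearest bin. It places 16 in the background class, the pair 20 kb upstream in the class shared by ES and iPS, the pairs 28 and 32 kb downstream in the class of ES alone, and 5 pairs 340 to 356 kb downstream in the class of iPS alone. Over the 5 bins that cover the start, the authors' deposited table lists 114 pairs and none in the class of NPC alone, which holds 13% of 11020 pairs in the region. In the authors' deposited table the class of iPS alone holds 15 of the 114 pairs, or 13.2%, against 3.48% in the region, and that of ES alone 14, or 12.3%, against 5.83%. The 5 bins overlap and share fragments, so 1 contact can be listed several times. These class shares are a description and were not tested. In the binned values, the pair 344 kb downstream was 1.16 higher in iPS than in ES (adjusted p = 0.0127, limma) and also 2.14 higher in ES 2i than in ES (adjusted p = 0.000933), and it was 0.391 and 0.498 in iPS, -0.258 and 0.082 in NPC, and -0.792 and -0.636 in ES.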

How the data were processed

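RNA and 5C libraries of 5 groups were analysed, with 2 libraries of each kind per group. The authors deposited RNA counts per transcript model; the submitters' processing notes name TopHat, TopHat2 2.1.0, HTSeq, Bowtie and mm9, without roles. The authors also deposited normalized log2 expression values, 5C counts per primer pair, distance-corrected binned log values whose base the file headers do not give and which were read as log2, and a class for each bin pair. The sources used here give no parameters of these steps. Reads in no model (26.54% to 86.64% per library) and ambiguous reads (6% to 35.6%) were left out throughout. Reads in models numbered 1150624 to 17286063 per library, and 5C counts 10508118 to 26533530.

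RNA was tested with edgeR's quasi-likelihood test (TMM, low-count filter, all 10 libraries, group as the only term) on 11031 models. 5C pairs with a mean of at least 10 counts were tested with edgeR, with the library, region and distance stratum count as offset. Binned values were tested with limma. A call is a Benjamini-Hochberg adjusted p under 0.05 over all features of the table. Standard errors are the log2 fold change divided by the root of F. Scripts were tested on simulated data. The members and gene lists were chosen with earlier results of these data known. Named by rule were the 8 models most correlated with Pou5f1, its neighbours within 100 kb, up to 4 called members of a list by size of change with Sox2 and Klf4, the 8 promoter pairs of highest contact at 20 kb or more, and up to 5 called pairs in each direction with a mean of at least 50 counts. Other genes, and pairs under 50 kb, were chosen after their values were seen. Alternatives were other filters, normalizations, strata, DESeq2, the replicate block, each library left out, and the fragment-balanced expectation. Promoter sequences are from RefSeq (GRCm38.p6), and no coordinates were converted between builds.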

Additional observations from a re-analysis of the deposited data

Results flagged for a closer look

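The response of Pou5f1 RNA to 2i medium differed between iPS and ES cells by -0.87 on the log2 scale (iPS response minus ES response, adjusted p = 0.00103, edgeR). The log2 fold change was -1.19 in iPS 2i over iPS and -0.32 in ES 2i over ES. Without iPS replicate 1 the difference was -0.64 (adjusted p = 0.0635).

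The response of promoter contacts to 2i differed between iPS and ES cells for 6 of 489 pairs (edgeR), all with a smaller response in iPS, and for 0 pairs with fragment-balanced expectation. Leaving out iPS replicate 1 gave 21 such pairs and leaving out iPS replicate 2 gave 1. Neither the part of single libraries nor that of whole fragments in these values was tested.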

How the results depend on the processing

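Of the recomputed values of the comparisons, 203 kept their direction and their side of the threshold or stayed within 1.5 times, 54 moved further and 7 lost their call; the cause was not tested. For single promoter pairs, 239 values held, 34 lost their call and 1 reversed: the gene body fragment with a fragment 38.1 kb downstream, in NPC over ES, was 0.16 with 100 distance strata, against -0.87 with 20. Pou5f1 RNA in iPS 2i over ES lost its call with no low-count filter (0.34), with NPC replicate 1 and ES replicate 2 left out together (0.31), and with each library left out (0.28 to 0.42). The iPS minus ES difference of the 2i response ran from -1.06 to -0.64 with 1 library left out. With 1 library left out, called promoter pairs numbered 38 to 64 for NPC over ES, 18 to 24 for iPS over NPC, 3 to 13 for iPS over ES, 39 to 104 for ES 2i over ES, 8 to 26 for iPS 2i over ES and 1 to 21 for the difference of the 2i responses. The binned shares then ran from 10.6% to 18.2% for NPC over ES, 2.71% to 7.77% for iPS over NPC and 16.6% to 58% for ES 2i over ES. With expectation from the region total alone, 131 pairs were called for iPS over NPC, 24 for iPS over ES, 1 for iPS 2i over iPS and 17 for the difference. With a window of 20 kb each side, NPC over ES had 122. Fitting only the groups compared gave 50 for NPC over ES, 20 for iPS over NPC and 11 for the difference, which was also 11 with a mean of at least 30 counts. DESeq2 called 29 for iPS over ES, 4 for iPS 2i over iPS, 70 for iPS 2i over ES and 25 for the difference. Fragment-balanced expectation, added after seeing the data, gave 0 for iPS over ES, 4 for ES 2i over ES, 0 for iPS 2i over ES and 0 for the difference. With the replicate block as well, these were 0, 5, 1 and 0, and iPS 2i over iPS had 2. With balancing and 1 library left out, 29 to 52 pairs were called for NPC over ES, 12 to 42 for iPS over NPC and 0 to 2 for ES 2i over ES. Same-numbered libraries deviated together weakly or not at all (correlations of -0.041 to 0.171 in 5C and -0.08 to 0.072 in RNA). In 5C with distance strata, 2 of 10 correlations were over 0.1. Pairs within a region made up 91.72% and 83.61% of 5C counts in ES 2i replicates 1 and 2, 90.47% and 83.57% in iPS, and 91.77% and 82.13% in iPS 2i. They made up 81.83% and 80.58% in ES, and 84.37% and 89.13% in NPC. The numbers were not taken as pairs in the main fits, and whether they share a batch was not tested. With the replicate block, the difference of the 2i responses had 14 called pairs and ES 2i over ES 168, and Pou5f1 RNA in iPS over ES stayed at 1.58. The sum over all Pou5f1 models, planned as an alternative, gave no other value, since there is 1 model. With 2 libraries a group and promoter pairs of few counts, small differences were not detectable.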
